A study of Mus musculus with 6 samples.

Results

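The sodium pump genes described here are the beta subunits Atp1b1, Atp1b2 and Atp1b3 and the FXYD regulators Fxyd1, Fxyd5 and Fxyd6, 6 of the 34745 genes in the deposited expression table. They were taken by gene symbol, and they had been chosen from measured values, with the counts of the comparison below already known. Their differences between the groups are therefore given as a description, and no p-value is printed for them. Calls at a threshold are counted for them, but nothing is read from these calls. The RNA-seq libraries came from NOR-10, a single cell line of mouse skeletal muscle fibroblasts, with 3 libraries in the D-gal group and 3 in the control group. Cells of the D-gal group received D-galactose at 20 mg/mL for 3 days, and control cells received PBS. Neither group carried a genetic change according to the labels, and no library with another sugar was analysed here. Total counts per library were 13759108 to 20830349.

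The sodium pump (Na,K-ATPase) sits in the plasma membrane of nearly every animal cell, where it exports sodium and imports potassium at the cost of ATP. The resulting gradients set the membrane potential, hold cell volume and drive many other transporters. The catalytic subunit binds the ions and splits ATP. The beta subunit is a glycoprotein that the catalytic subunit needs to fold and to reach the cell surface, and it also takes part in adhesion between cells. FXYD proteins are small membrane proteins that bind the pump and adjust its affinity for ions or its rate.

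Of the fibroblast markers, 8 of 10 had at least 10 counts in every library, and their summed level was 7075 to 7242 CPM (counts scaled to a common library size) without and 4755 to 4876 CPM with D-gal. Most of it was Col1a1, Col1a2 and Vim. Of these 8 markers, only Pdgfrb was higher with D-gal once scaled to library size. It had 7925, 8662 and 6652 counts in control and 6857, 7374 and 6582 in the smaller D-gal libraries. Lum and Fap were the markers near 0. Of the 7 myogenic markers, Pax7, Myf5 and Myod1 were at 0 in all 6 libraries. Their summed level moved with the group, from 3.08 to 3.55 CPM in control to 1.89 to 2.05 CPM in D-gal libraries. Most of it was Des, the muscle intermediate filament desmin, with 56, 67 and 51 counts in control and 26, 27 and 26 in D-gal libraries. Control replicate 1 stood apart from the other libraries in its leukocyte markers, whose summed level was 17.1 CPM there, 4.03 and 6.72 in the other control libraries and 4.44 to 5.48 in the D-gal libraries. Csf1r, the receptor for a macrophage growth factor, had 141 counts in control replicate 1 and 13 to 38 in the others. Ptprc, the pan-leukocyte antigen CD45, had 13 counts there and 0 to 3 elsewhere. Epithelial markers were low and moved with the group, from 6.91 to 8.36 CPM in control to 1.78 to 2.63 CPM in D-gal libraries. Nearly all of this was Cdh1, the epithelial cadherin, with 140 to 142 counts per control library and 26 to 37 per D-gal library, whereas Epcam was at 0. The sum of the Schwann cell or glial markers was 3.65 to 5.33 in control and 5.59 to 8.31 in D-gal libraries. The endothelial sum was 5.18 to 5.75 and 4.44 to 6.40, but its markers moved apart. Kdr had 45, 37 and 35 counts in control and 23, 18 and 16 in D-gal libraries. Tek had 45, 28 and 28 against 11, 13 and 15. Vwf went the other way, from 8, 15 and 15 to 18, 45 and 32. Pecam1 had 14, 28 and 13 against 14, 20 and 11, and Cdh5 was near 0. The part of these other cell types in the results was not tested, and results are given without control replicate 1 where they rest on it.

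Both beta subunits with ample counts were higher in the D-gal group, Atp1b1 by 3.95-fold and Atp1b3 by 1.19-fold, whereas Fxyd5 was 1.69-fold lower. Atp1b2 and Fxyd1 were near the limit of detection and Fxyd6 had no count in any library. A filter on low counts (edgeR's filterByExpr) left 3 of the 6 genes for the test across all 13407 genes that passed it. Of those 3, Atp1b1 and Atp1b3 were called higher and Fxyd5 lower (edgeR, adjusted p-value under 0.05), a threshold that 34.8% of all genes tested passed (16.9% higher and 17.8% lower). Atp1b1 alone also had a log2 fold change of at least 1, as did 2.37% of all genes tested in the upward direction. The normalized counts of the groups did not overlap in any of the 3, as in 49.1% of all genes tested. Since the genes were chosen on this comparison, nothing is read from these counts.

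**Figure D1:**
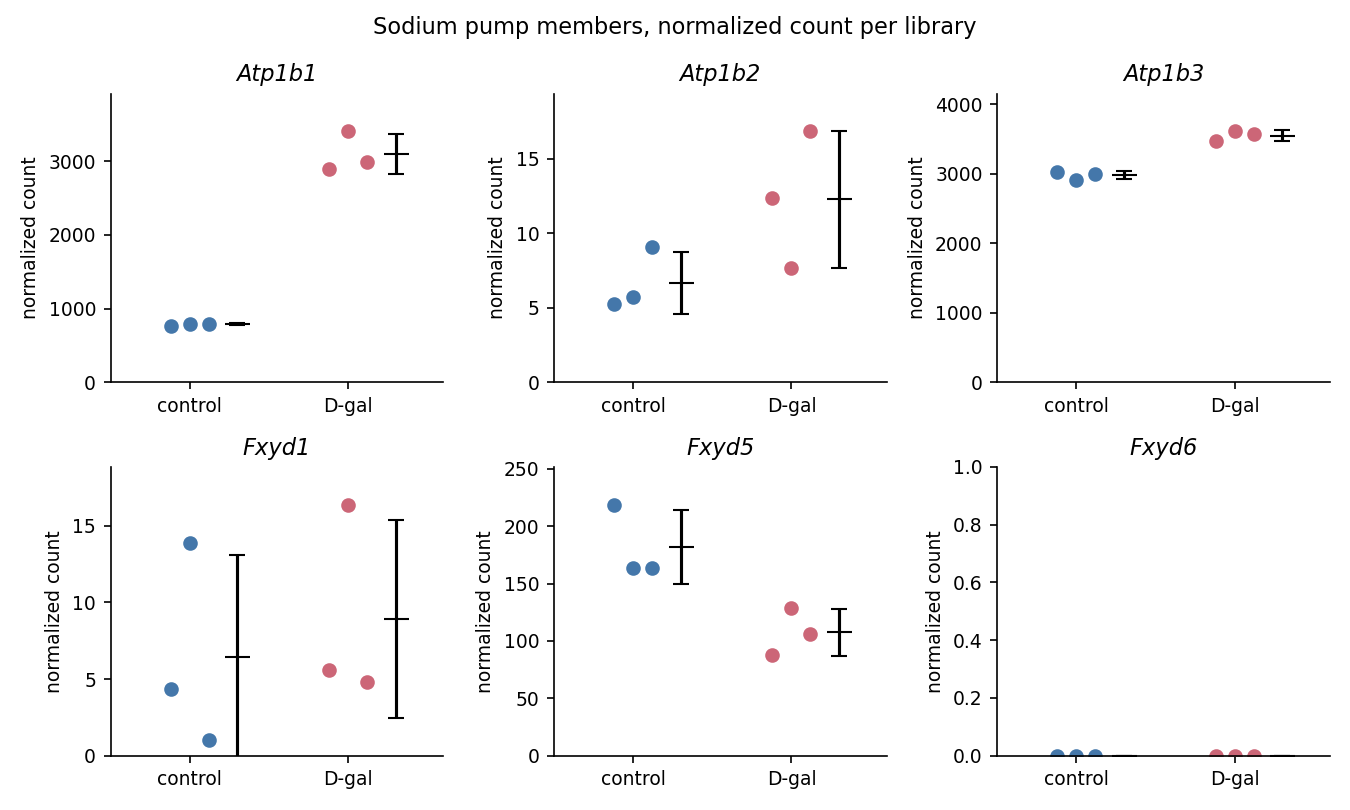
Normalized count (y axis, linear, from 0, with a different range in each panel) of each sodium pump gene in the 3 control libraries (blue) and the 3 D-gal libraries (red). Black marks give the mean and SD, and the lower bar of control Fxyd1 is cut at 0. Atp1b1 went from 769 to 796 in control to 2900 to 3410 in D-gal libraries, and Fxyd6 was at 0 throughout.

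Atp1b1 (ENSMUSG00000026576) encodes beta 1, the most widely expressed beta subunit. It spans chromosome 1 of GRCm38 from 164437109 to 164458355 on the minus strand, with 4 annotated transcripts, 2 of them coding. The control libraries held 883, 976 and 784 Atp1b1 counts, against 2584, 3123 and 2483 after D-gal. Every D-gal library lay far above every control library, although the D-gal libraries had fewer counts in total. Normalized for library size, Atp1b1 had 786 ± 14.4 counts (SD, n = 3) without D-gal and 3101 ± 272 (SD, n = 3) with it. The log2 fold change was 1.98 (standard error 0.06), and it ranked 62 from the top among all genes tested. The spread of the replicates was wider after D-gal. Since Atp1b1 was chosen on this comparison, nothing is read from the gap between the groups. The end of Atp1b1 overlaps the exons of Nme7, on the other strand, over 575 bases (18.7% of its exonic bases), and the strand setting of the counting is not given in the sources used here. Reads of both genes could therefore be mixed in this stretch. Nme7, which encodes a nucleoside diphosphate kinase family member, had 302, 354 and 264 counts in control and 261, 319 and 213 in D-gal libraries. Its log2 fold change was 0.13 (standard error 0.12) and was not past the threshold (adjusted p = 0.422 in the edgeR test).

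Atp1b3 (ENSMUSG00000032412) encodes beta 3, which is also widely expressed. It lies on chromosome 9 from 96332655 to 96364442, minus strand, with 3 annotated transcripts of which 1 is coding. The control libraries held 3477, 3571 and 2962 Atp1b3 counts, against 3090, 3311 and 2966 after D-gal. The raw counts thus overlapped, and the difference appeared once the smaller D-gal libraries were scaled. Normalized, it had 2978 ± 59.1 counts (SD, n = 3) without D-gal and 3552 ± 76.2 (SD, n = 3) with it, and the groups did not overlap. Its log2 fold change of 0.25 (standard error 0.03) was small beside that of Atp1b1, and Atp1b3 was likewise chosen on this comparison. Of the words of 31 bases in its transcripts, 16.2% also occur in transcripts of other genes, led by Gm1848, so that a part of its reads could be placed on copies.

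Atp1b1 and Atp1b3 are the members that were higher, and the sequences before their transcription starts are shown for this reason. RefSeq promoter entries on GRCm38.p6 matched 5 of the 6 genes by symbol, and Atp1b3 has a second annotated start. The 250 bases before the RefSeq start are given 5′ to 3′ on the strand of the gene, at chr1:164458356-164458605 (minus strand) and chr9:96364432-96364681 (minus strand, first start). The annotated Atp1b3 gene reaches to 96364442, beyond the RefSeq start, so the last bases of its window fall within that gene. Capitals mark matches on either strand to the GC box letters GGGCGG, to CCAAT and to TATATA.
Atp1b1: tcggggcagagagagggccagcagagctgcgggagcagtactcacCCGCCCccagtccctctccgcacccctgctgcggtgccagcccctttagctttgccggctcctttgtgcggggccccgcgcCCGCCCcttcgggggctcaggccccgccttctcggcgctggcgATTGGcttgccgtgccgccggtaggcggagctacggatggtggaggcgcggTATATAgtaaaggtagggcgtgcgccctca
Atp1b3: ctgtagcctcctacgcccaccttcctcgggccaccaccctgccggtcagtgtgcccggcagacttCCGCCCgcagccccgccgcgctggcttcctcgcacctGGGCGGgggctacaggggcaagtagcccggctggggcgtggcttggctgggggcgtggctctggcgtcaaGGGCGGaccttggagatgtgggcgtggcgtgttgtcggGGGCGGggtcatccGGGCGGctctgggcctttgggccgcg
The Atp1b1 window holds 2 GC boxes, 1 CCAAT match that begins 81 bases before the start and 1 TATATA match that begins 30 bases before it. The Atp1b3 window holds 5 GC boxes and neither CCAAT nor TATATA. The TATA box letters TATAAA were also searched on both strands and have no match in either window. Among all 32851 promoter windows of this length, 32.7% hold a GC box, 33.8% CCAAT, 5.25% TATATA and 12.4% TATAAA. The windows are rich in G and C, at 70.4% and 73.6%, where the median of all windows is 52.4%. The tonicity element TonE, the motif bound by NFAT5, was searched by its consensus on both strands and has no match in either window. It has 1 match in the window of the second Atp1b3 start, and 4.31% of all windows hold it. A match is a description of the letters and no evidence of binding.

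Atp1b2 (ENSMUSG00000041329, chromosome 11, 69599736 to 69605942, minus strand) encodes beta 2, known in glia as an adhesion molecule. Control libraries held 6, 7 and 9 Atp1b2 counts, and D-gal libraries 11, 7 and 14. The ranges overlapped once normalized, with 6.68 ± 2.10 (SD, n = 3) against 12.3 ± 4.61 normalized counts (SD, n = 3). In a fit without the filter on low counts its log2 fold change was 0.87 with a standard error of 0.52, and at this depth a difference was not detectable.

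Levels per gene length were compared with the deposited FPKM values. Among the 6 genes the order was the same in both groups, with Atp1b3 first, followed by Atp1b1, Fxyd5, Fxyd1, Atp1b2 and Fxyd6. The ranges of Fxyd1 and Atp1b2 overlapped in each group, so those neighbours did not differ beyond their spread, and all other neighbours were apart. Atp1b3 had 68.0, 65.2 and 66.8 FPKM in control and 79.2, 83.1 and 82.0 FPKM in D-gal libraries. Atp1b1 had 11.99, 12.4 and 12.3 FPKM in control and 46.0, 54.5 and 47.7 FPKM in D-gal libraries. Beta 3 thus stayed the most abundant beta transcript, but its lead narrowed.
The ratio of Atp1b3 to Atp1b1 in FPKM was 5.46 ± 0.201 (SD, n = 3) without D-gal and 1.66 ± 0.112 (SD, n = 3) with it. For the members with counts, the deposited FPKM divide by the summed length of distinct exons. Per union of annotated exons the ratio was 4.89 ± 0.180 (SD, n = 3) without and 1.48 ± 0.101 (SD, n = 3) with D-gal. The order of the 6 genes was the same on that scale. As a share of the summed FPKM of the beta subunits, Atp1b1 made up 15.5% ± 0.480 (SD, n = 3) without D-gal and 37.7% ± 1.64 (SD, n = 3) with it. Atp1b2 contributed at most 0.0973% in any library. The sum itself was 78.9 ± 1.19 FPKM (SD, n = 3) without D-gal and 130.9 ± 6.25 FPKM (SD, n = 3) with it.

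**Figure D2:**
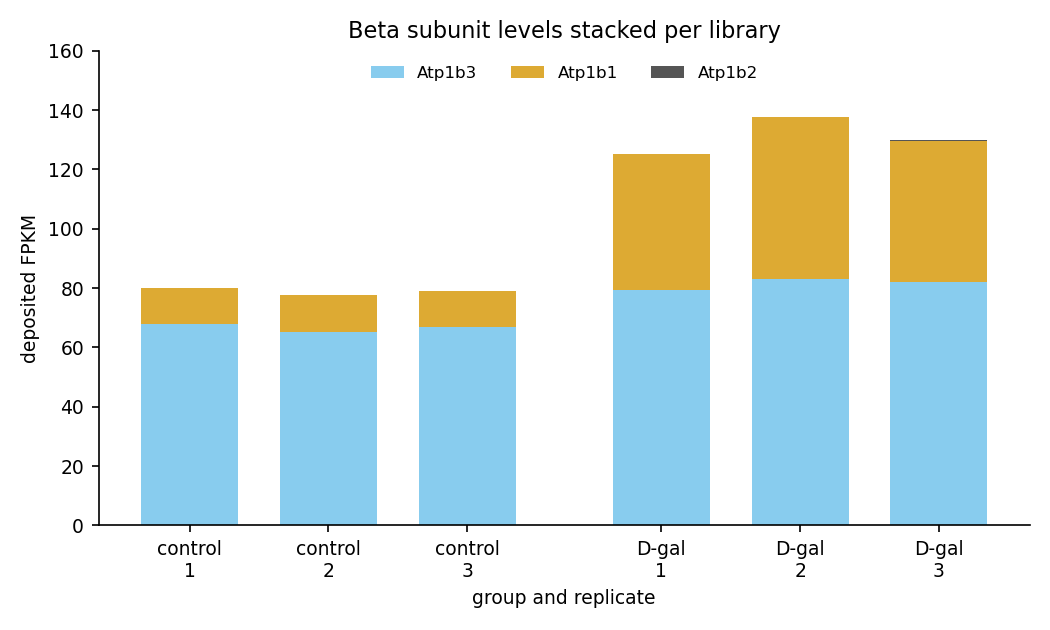
Deposited FPKM (y axis, linear, from 0) of Atp1b3 (light blue), Atp1b1 (yellow) and Atp1b2 (grey, barely visible) stacked for each of the 6 libraries. The Atp1b1 part of the bars was larger in the 3 D-gal libraries, with 46.0 to 54.5 FPKM, than in the 3 control libraries.

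The FXYD regulators were lower in FPKM than Atp1b3 and Atp1b1 in both groups. Fxyd5 (ENSMUSG00000009687) encodes dysadherin, a regulator that raises pump activity and is known for weakening adhesion between cells. Among Fxyd1, Fxyd5 and Fxyd6 it was the only gene with more than 17 counts in any library. It lies on the minus strand of chromosome 7 from 31032722 to 31042481, next to Fxyd7, at 31042513 to 31051467, and Fxyd1. Control libraries held 251, 200 and 162 Fxyd5 counts, and D-gal libraries 78, 118 and 88. All D-gal libraries were below all control libraries also after normalization, with 182 ± 31.9 (SD, n = 3) against 107 ± 20.7 normalized counts (SD, n = 3). Its log2 fold change was -0.76 (standard error 0.18). Control replicate 1, the library with more leukocyte marker counts, had the highest normalized Fxyd5 count, 219, whereas the other control libraries had 163 and 164. Without that library the log2 fold change was -0.60 (standard error 0.17). Fewer cells with the transcript and less transcript per cell cannot be told apart in bulk RNA. In FPKM, Fxyd5 had 1.83, 1.36 and 1.36 in control and 0.744, 1.10 and 0.906 in D-gal libraries. These FPKM values divide by a length of 7059 bases, the sum of its distinct annotated exons, whereas the exons cover 4192 bases, so they understate its level. The same holds to differing degrees for the other members with counts. The lengths were 8058 against 4085 bases for Atp1b2 and 4838 against 2186 for Fxyd1. They were 3784 against 3081 for Atp1b1 and 2628 against 2389 for Atp1b3.

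Fxyd1 (ENSMUSG00000036570, chromosome 7, 31051678 to 31057199, minus strand) encodes phospholemman, the FXYD protein of heart and skeletal muscle. Control libraries held 5, 17 and 1 Fxyd1 counts, and D-gal libraries 5, 15 and 4. The libraries within a group differed more than the groups did, with 6.41 ± 6.67 (SD, n = 3) against 8.94 ± 6.46 normalized counts (SD, n = 3). The log2 fold change without the filter was 0.43 with a standard error of 0.77.
Fxyd6 (ENSMUSG00000066705, chromosome 9, 45370185 to 45396158, plus strand) encodes phosphohippolin, known from the brain. It had 0 counts in each of the 6 libraries, which allows up to 3 counts, or 0.144 to 0.218 CPM, depending on the library. This limit covers counting error only.

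Another beta subunit gene and the other FXYD proteins were read from a list of 5 genes, and 0 of them passed the filter on low counts. Atp1b4, Fxyd3 and Fxyd4 were at 0 in every library. Fxyd7 had 1 count over all libraries. Fxyd2, the regulator known from kidney, had 45, 2 and 0 counts in control and 0, 0 and 3 in D-gal libraries. Its counts therefore lay mainly in control replicate 1.

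Genes that act on the pump or share its ions were read from 3 further lists. Of 24 genes for the trafficking of the pump, its kinases and its partners, 22 were tested, of which 8 fell and 0 rose, and 14 did not pass the threshold. Of all genes tested, 17.8% were called lower and 16.9% higher. The 8 of 22 called were close to the 34.8% called in either direction among all genes tested. At an unadjusted p under 0.05, edgeR had 0 higher and 11 lower genes in this list. Over all 13407 genes tested it had 2952 higher and 3032 lower at that threshold. At an adjusted p under 0.05, DESeq2 had 0 higher and 7 lower genes in the list, and it called 3873 genes in all. The median log2 fold change of the list was -0.13, where that of all genes tested was 0.0036. Prkca, the protein kinase C isoform that phosphorylates the pump and phospholemman, fell by 0.54 on the log2 scale (standard error 0.05, adjusted p = 1.7e-04 in the edgeR test). Ppp1ca, a catalytic subunit of protein phosphatase 1, which removes phosphate from phospholemman, fell by 0.32 (standard error 0.03, adjusted p = 1.4e-04 in the edgeR test), although 13.4% of its words are shared, led by the overlapping gene Rad9a. Prkcd, another protein kinase C, fell by 0.25 (standard error 0.04, adjusted p = 0.00287 in the edgeR test).

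Of 19 other cation-transporting P-type ATPases, 9 were tested, of which 2 rose and 1 fell, with a median log2 fold change of -0.05. This share, 3 of 9, was close to the 34.8% called among all genes tested. Atp2b1, a calcium pump of the plasma membrane, fell from 2805 ± 107 to 2008 ± 88.9 normalized counts (SD, n = 3), by 0.48 on the log2 scale (adjusted p = 1.7e-04 in the edgeR test). Atp13a2, a lysosomal polyamine exporter, had a log2 fold change of 0.50 (adjusted p = 0.0256 in the edgeR test) and Atp7b, a copper pump with 2 to 15 counts per library, one of 1.70 (adjusted p = 0.0405 in the edgeR test). Neither rise was stable. Atp13a2 was no longer called without control replicate 1 (adjusted p = 0.05003 in the edgeR test), control replicate 3 (0.0554), D-gal replicate 1 (0.0760) or D-gal replicate 3 (0.0733). Atp7b was no longer called without any one library other than control replicate 3 (adjusted p = 0.0728 to 0.124 in the edgeR test).

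Of 36 genes for sodium entry and exchange, 18 were tested, of which 4 rose and 2 fell, with a median log2 fold change of 0.0042. These 6 of 18 were likewise close to the share of 34.8% over all genes tested. Asic1, a proton-gated sodium channel, rose from 97.0 ± 9.51 to 208 ± 4.14 normalized counts (SD, n = 3), by 1.10 on the log2 scale (adjusted p = 1.96e-04 in the edgeR test). Slc8b1, the sodium and calcium exchanger of mitochondria, rose from 146 ± 19.9 to 308 ± 42.7 normalized counts (SD, n = 3), by 1.07 on the log2 scale (adjusted p = 8.1e-04 in the edgeR test). Slc4a7, a cotransporter of sodium and bicarbonate, rose by 0.26 on the log2 scale (adjusted p = 0.00297 in the edgeR test). Scn2a is listed in the table under its older symbol and was matched to it.

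**Figure D3:**
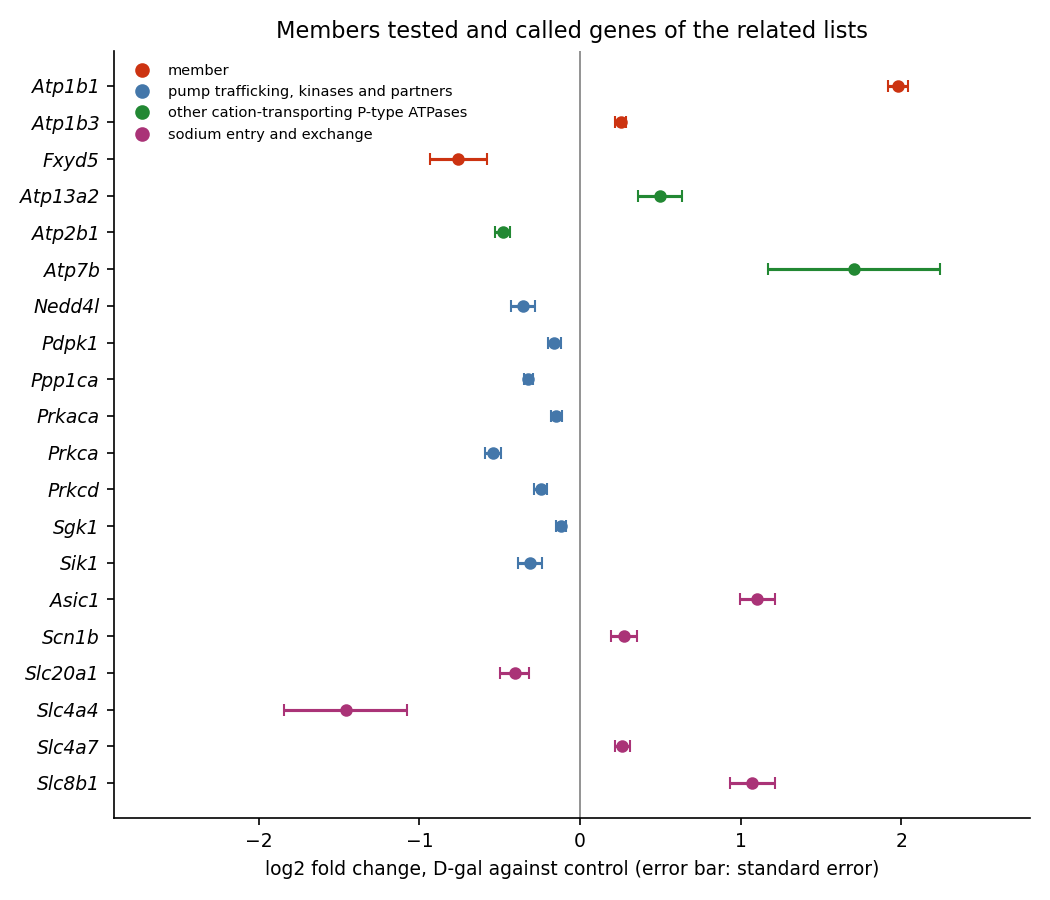
Log2 fold change of D-gal against control (x axis, positive values higher in D-gal) with its standard error for the 3 sodium pump members that passed the filter on low counts (red) and for the 17 genes of the related lists past an adjusted p-value of 0.05, coloured by list. Atp1b1 has the largest value of these genes, at 1.98, and the 8 genes of the trafficking and kinase list all lie below 0.

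Genes whose profile over the 6 libraries was most like that of a sodium pump gene were taken by the Euclidean distance between log2 CPM values centred on the mean of each gene, over 13404 other genes. Nearest to Atp1b1 were Fgd3 (distance 0.198), Tuba8 (0.207) and Ampd3 (0.291), an activator of Cdc42, an alpha tubulin and an AMP deaminase. Their log2 fold changes were 1.85, 1.91 and 2.23. Nearest to Atp1b3 were Rnf103 (distance 0.0206), Xpot (0.0338) and Ctps (0.0355), a ubiquitin ligase, a tRNA exporter and CTP synthase. Nearest to Fxyd5 were Apol8 (distance 0.275), Sh3tc1 (0.289) and 2010110K18Rik (0.307). The log2 fold changes of the last 3 were -0.64, -0.85 and -0.81. The measure describes likeness over these libraries only.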

How the data were processed

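The members and the related gene lists were chosen with earlier results of these data known. The deposited table holds for each of 34745 genes and 6 libraries a read count, which the authors gave without normalization, and an FPKM value, which the authors scaled by gene length and library size. According to the methods, the authors ran FastQC and then Trimmomatic on the reads, and the submitters' processing notes name HISAT2 (version 2.0.4). The counting tool and its strand setting are not given in the sources used here. The labels name an RNA-seq library kit, whereas the methods name one for small RNA; the labels were followed.

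After TMM scaling (factors 0.986 to 1.01) and filterByExpr, counts entered the quasi-likelihood test of edgeR 4.0.16 (R 4.3.3), with p-values adjusted by Benjamini-Hochberg over 13407 genes. Normalized counts are counts over the TMM-scaled library size, times its mean. No libraries of a group agreed within sampling noise (chi-square over its degrees of freedom 6.00 to 9.42), but nothing in the labels says that they were separate cultures, so p-values measure the spread between these libraries. The functions were tested on simulated data. Gene coordinates are those of the deposited table, whose build is not given in the sources used here. They equal GENCODE M21 (GRCm38), which gave exons and transcripts, for every member except Fxyd6, whose end differs by 1 base. Named were all members, all genes of a list of other beta and FXYD genes, up to 3 called genes with the smallest p of each other list and the 3 genes nearest in profile to each member tested. Lists came from general knowledge, and some genes of them are not reported here. Alternatives were DESeq2 (version 1.42.0), RLE size factors, 2 other filters, a replicate block, each library left out, limma (version 3.58.1) on log2(FPKM + 1) and on log2(FPKM + 0.1), and levels per union of exons.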

Additional observations from a re-analysis of the deposited data

How the results depend on the processing

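Over the 13 alternatives to the edgeR test, the log2 fold changes of Atp1b1, Atp1b3 and Fxyd5 ranged from 1.91 to 2.03, from 0.24 to 0.29 and from -0.91 to -0.39. The value of -0.39 came from limma on log2(FPKM + 1), a scale that understates changes of genes with low values. The count of members called was 3 in every alternative, and leaving out 1 library at a time it was again 3, from which nothing is read, since the members were chosen on this comparison. The related lists held 17 called genes, 12 to 17 in the alternatives and without 1 replicate 12 to 16. With the replicate block the numbers were 3 members and 15 related genes called. No pairing by replicate number was visible: the correlations of same-numbered libraries' deviations from their group means were -0.011, -0.0027 and 0.028. These values cannot show whether same-numbered libraries were handled together. Among the related genes named, only Atp13a2 and Atp7b lost their call in any alternative, 5 and 8 times. The Atp1b1 share of the beta FPKM moved to 17.0% in the control and 40.3% in the D-gal group when levels were computed per union of annotated exons. Without 1 replicate it ranged from 15.3% to 15.7% and from 36.7% to 38.1%. Depth limits Atp1b2, Fxyd1 and Fxyd6, for which a difference could not be tested with the filter on low counts.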

Other observations

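Control replicate 1 held transcripts that the other libraries nearly lacked. Counted after the values had been seen, 20 genes had at least 20 counts in that library and at most 5 in each of the other 5 libraries. The same count was 2 for control replicate 2, 0 for control replicate 3, and 1, 0 and 1 for the D-gal libraries. Fxyd2 is among the 20 genes. Fxyd1 had its highest counts elsewhere, 17 in control replicate 2 and 15 in D-gal replicate 2.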
